A study of Mus musculus with 43 samples.

Results

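The 9 genes described here are the fibroblast growth factor (FGF) receptors Fgfr1, Fgfr2, Fgfr3, Fgfr4 and Fgfrl1, the FGF ligands Fgf2, Fgf7 and Fgf10, and the FGF homologous factor Fgf13. They were taken by gene name from the 52636 genes of each of 2 expression tables, organoids and fibroblasts, and all 9 were found in both. The bulk RNA sequencing libraries came from mouse colon. Colonoids (Apc wild-type) were grown from Vil-cre/ERT2 Apc wt/wt mice and tumoroids (Apc deficient) from Vil-cre/ERT2 Apc flox/flox mice, and mice of both genotypes had received tamoxifen. In these mice an inducible Cre recombinase is driven by the villin promoter, which is active in intestinal epithelium, so the loss of Apc is directed to epithelial cells. Colonoid lines M41, M40 and M1 and tumoroid lines F11, M3 and M14 were each grown for 6 days with vehicle (Ve, 0.5% DMSO), regorafenib at 4 µM (R4) or 8 µM (R8), or 5-fluorouracil at 1 µM (FU1), with 1 library per line and condition. Fibroblast lines M3, M3(2), M1(2) and M11 from wild-type C57BL/6 mice were treated for 7 days with vehicle, regorafenib at 4 µM (R4) or 10 µM (R10), the autophagy inhibitor autogramin-2 at 1 µM (A1), or both agents at 4 and 1 µM (R4A1), and M11 had no R10 library here. The organoid mice and the mice of fibroblast lines M3 and M3(2) were 2 months old. M3 names a tumoroid line and a fibroblast line of different genotype. The paper describes each fibroblast line as derived from its own mouse, and lists M3 and M3(2) as separate lines. All organoids shared a medium with EGF, R-spondin 1, Noggin and Wnt3a-conditioned medium, with no FGF listed, and all fibroblasts shared a medium with 10% serum.

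FGF ligands bind receptor tyrosine kinases together with heparan sulfate, and the activated receptor signals through FRS2, RAS, RAF and ERK and through phospholipase C gamma. Fgfr1 to Fgfr4 encode the kinase receptors, and Fgfrl1 encodes a related receptor that binds ligand but has no tyrosine kinase domain. In the gut, mesenchymal Fgf7 and Fgf10 act on the epithelial splice form of Fgfr2, whereas Fgf2 acts mainly on Fgfr1 and on the mesenchymal splice forms. Fgf13 is not a secreted ligand: its product stays inside the cell and binds sodium channels and microtubules. Regorafenib is a multi-kinase inhibitor whose targets include FGFR1 and FGFR2, the VEGF and PDGF receptors and RAF kinases, and the libraries allow the transcripts of the receptors and ligands to be followed under the drug in both compartments.

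The promoter windows of 5 genes are shown because the results turn on them: Fgf2 and Fgfrl1, which rose together in regorafenib-treated organoids, Fgfr2 and Fgfr4, which fell there, and Fgf7, which was lower in all regorafenib-treated fibroblast lines. Each window holds 250 bases before and 50 bases from the RefSeq start (RefSeq, GRCm38.p6), written 5′ to 3′ on the gene's strand. Capitals mark matches, on either strand, to 6 motifs: the GC box GGGCGG, the E-box CACGTG, AP-1 TGANTCA, ETS CCGGAA, TCF/LEF CTTTGA and the TATA box TATAAA, where N is any base. The windows are chr3:37348403-37348702 on the plus strand for Fgf2, chr5:108693979-108694278 on the plus strand for Fgfrl1, chr7:130266759-130267058 on the minus strand for Fgfr2, chr13:55152568-55152867 on the plus strand for Fgfr4 and chr2:126034408-126034707 on the plus strand for Fgf7.
Fgf2: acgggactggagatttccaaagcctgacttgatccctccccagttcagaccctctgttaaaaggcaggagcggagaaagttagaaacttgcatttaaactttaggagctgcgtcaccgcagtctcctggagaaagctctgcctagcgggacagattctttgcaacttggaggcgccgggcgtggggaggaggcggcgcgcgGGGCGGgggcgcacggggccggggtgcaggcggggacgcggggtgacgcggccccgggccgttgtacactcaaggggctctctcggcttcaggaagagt
Fgfrl1: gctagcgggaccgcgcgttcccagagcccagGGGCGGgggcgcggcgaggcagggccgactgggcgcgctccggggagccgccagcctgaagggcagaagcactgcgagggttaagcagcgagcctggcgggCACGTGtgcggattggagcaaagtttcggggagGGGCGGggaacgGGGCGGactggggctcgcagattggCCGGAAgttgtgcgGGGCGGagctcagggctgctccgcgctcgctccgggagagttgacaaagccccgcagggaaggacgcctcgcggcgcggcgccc
Fgfr2: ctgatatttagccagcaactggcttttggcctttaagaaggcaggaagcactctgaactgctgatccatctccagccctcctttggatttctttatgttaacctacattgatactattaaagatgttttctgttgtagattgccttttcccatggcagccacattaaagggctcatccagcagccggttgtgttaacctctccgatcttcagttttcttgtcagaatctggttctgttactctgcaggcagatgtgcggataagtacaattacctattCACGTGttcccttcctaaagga
Fgfr4: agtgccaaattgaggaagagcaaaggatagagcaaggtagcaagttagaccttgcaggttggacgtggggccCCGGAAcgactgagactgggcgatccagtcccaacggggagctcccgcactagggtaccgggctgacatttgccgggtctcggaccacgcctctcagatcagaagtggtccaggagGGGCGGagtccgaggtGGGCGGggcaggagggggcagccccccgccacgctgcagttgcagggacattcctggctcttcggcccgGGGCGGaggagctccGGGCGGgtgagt
Fgf7: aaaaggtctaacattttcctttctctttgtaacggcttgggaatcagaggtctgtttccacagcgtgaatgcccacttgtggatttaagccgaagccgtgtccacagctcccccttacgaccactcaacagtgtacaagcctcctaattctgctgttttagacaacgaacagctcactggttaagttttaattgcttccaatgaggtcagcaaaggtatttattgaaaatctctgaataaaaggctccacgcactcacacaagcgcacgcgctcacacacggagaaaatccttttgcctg
The Fgfrl1 window held 6 matches and the Fgfr4 window 5, most of them GC boxes, with an ETS match in each and an E-box in Fgfrl1. The Fgf2 window held 1 GC box, the Fgfr2 window 1 E-box, and the Fgf7 window no match. Of the 32851 RefSeq promoter windows of this length, 35.66% held a GC box, 7.15% an E-box, 7.808% an AP-1 motif, 14.9% an ETS motif, 16% a TCF/LEF motif and 13.62% a TATA box. The GC content was 62.67% for Fgf2, 73.67% for Fgfrl1, 65.33% for Fgfr4, 43.67% for Fgfr2 and 45.67% for Fgf7, against a median of 52.67% over all windows. A match is a description of the letters, and binding at these sites was not measured.

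Values are CP20M, reads per gene scaled to 20000000 per library and not divided by gene length, so 20 CP20M equals 1 CPM, where CPM is a count scaled to a total 20 times smaller. The 24 organoid libraries held 512592 to 22370026 gene-assigned reads and the 19 fibroblast libraries 7949961 to 12825919, as recovered from the steps of the values. The smallest library, colonoid line M41 at R4, stood apart: 1 read there was worth 39.0 CP20M, against at most 4.57 CP20M in the other organoid libraries, and each result that rests on it is also given without it where the call differs. The labelled cell types held: the summed epithelial markers (Epcam, Cdh1, Krt8, Vil1, Cdx2, Lgals4) were at 59549 to 164764 CP20M in organoids and 8 to 47 CP20M in fibroblasts, and the summed fibroblast markers (Pdgfra, Col1a1, Col1a2, Col3a1, Dcn, Lum, Thy1) at 0 to 118 and 105980 to 178859 CP20M, with Lum at 0 in all 24 organoid libraries. Fewer cells of a type and less RNA per cell cannot be told apart in bulk libraries.

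The epithelium and the fibroblasts held different receptors and ligands in vehicle. Per kilobase of exon, the highest member in colonoids was Fgfrl1 with 107 ± 1.85 CP20M per kb (SD, n = 3), followed by Fgfr4 with 95.7 ± 39.2, Fgfr2 with 80.8 ± 27.4 and Fgf13 with 73.2 ± 18.4, and the ranges of these neighbours overlapped. Fgf2 followed with 30.9 ± 13.2 CP20M per kb, and its range did not overlap that of Fgf13 above it. Fgfr3 was at 6.71 ± 6.54, and Fgf7, Fgfr1 and Fgf10 were at 1.03, 0.304 and 0 CP20M per kb. The order was the same in tumoroids down to Fgfr3, from Fgfrl1 with 229 ± 7.57 and Fgfr4 with 145 ± 76.7 through Fgfr2 with 81.2 ± 36.4 and Fgf13 with 80.3 ± 27.3 to Fgf2 with 32.7 ± 21.2 and Fgfr3 with 4.61 ± 5.39 CP20M per kb, and here the range of Fgf13 overlapped those of both Fgfr2 and Fgf2, whereas that of Fgf2 did not overlap that of Fgfr3. Fgf10 was at 0 CP20M in all 6 vehicle organoid libraries.

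In fibroblasts the order was led by Fgf2 with 826 ± 243 (SD, n = 4), Fgfr1 with 668 ± 101, Fgf10 with 475 ± 233 and Fgfrl1 with 308 ± 58.6 CP20M per kb, each overlapping the next. Fgf7 at 209 ± 82.2 overlapped Fgfrl1 but not Fgfr2 at 65.1 ± 24.4, and Fgf13 at 17.1 ± 3.70, Fgfr3 at 4.93 ± 2.48 and Fgfr4 at 0.494 ± 0.582 CP20M per kb followed without overlap. The mesenchymal ligands Fgf7 and Fgf10 and the receptor Fgfr1 were thus near 0 in the organoids and abundant in the fibroblasts, and Fgfr4 the reverse, while Fgfr2 was present in both. The 2 tables were scaled separately, so levels are set side by side without a test. The exon length of Fgfr2 is uncertain, because the annotation's Fgfr2 model, chr7:130162451-133123350 on the minus strand, holds readthrough transcripts that span many other genes.

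**Figure D1:**
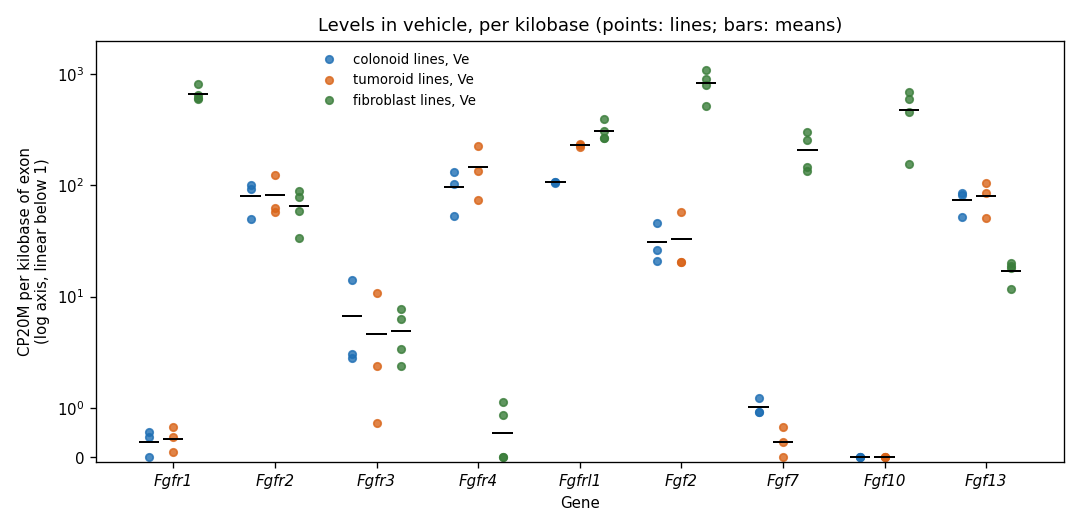
CP20M per kilobase of exon (y axis, log scale, linear below 1) of the 9 genes (x axis) in vehicle-treated colonoid (blue), tumoroid (orange) and fibroblast (green) lines, with a point per line and bars for the means. Fgfr1, Fgf7 and Fgf10 lie near 0 in both kinds of organoid and above 100 in every fibroblast line, and Fgfr4 lies at or below 1.13 in fibroblasts.

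The first question was how regorafenib, at R4 and R8 together, moved these genes in organoids. Of the 9 members, 5 reached 200 CP20M in at least 2 of the 18 vehicle and regorafenib libraries and were tested with limma on log2(CP20M + 20), a scale that understates the change of low genes. A gene was called at a Benjamini-Hochberg adjusted p under 0.05 and a change of at least 1.5-fold. All 5 tested members were called, 2 higher and 3 lower, where 16.21% of all 11320 tested genes were called. The median log2 fold change over all tested genes was -0.10. The 4 members that were not tested were Fgfr1 at 0 to 18, Fgfr3 at 0 to 105, Fgf7 at 0 to 14 and Fgf10 at 0 to 2 CP20M over all 24 organoid libraries.

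Fgfr2, the receptor through which mesenchymal FGFs reach the epithelium, fell. In colonoids, vehicle libraries held 510 (M41), 1030 (M40) and 963 (M1) CP20M, against 313, 417 and 363 at R4 and 361, 404 and 380 at R8 in the same lines. In tumoroids, vehicle libraries held 1272 (F11), 650 (M3) and 594 (M14) CP20M, against 327, 415 and 292 at R4 and 316, 501 and 337 at R8. All 12 regorafenib libraries lay below all 6 vehicle libraries, and the spread between lines was smaller under the drug than in vehicle. The fall was 2.11-fold, a log2 fold change of -1.08 (SE 0.18, limma with Benjamini-Hochberg adjustment, adjusted p = 0.000627). It passed the threshold in both genotypes, by -1.06 on the log2 scale in colonoids (SE 0.26, limma adjusted p = 0.0131) and by -1.10 in tumoroids (SE 0.26, adjusted p = 0.0196). Without M40 or M1 the adjusted p in colonoids was 0.106 and 0.11, and without F11, M3 or M14 that in tumoroids was 0.266, 0.0511 and 0.108. The fall in Fgfr2 without F11 was 0.69 on the log2 scale in tumoroids. Other genes overlap the long Fgfr2 model on both strands, and reads shared with them were not separated here.

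Fgfr4, an epithelial receptor best known as the receptor for the bile acid regulator Fgf15, was lower in most lines. Its vehicle values in M41, M40 and M1 were 189, 463 and 365 CP20M, those at R4 were 157, 147 and 183, and those at R8 were 54, 84 and 325. In F11, M3 and M14 vehicle values were 800, 478 and 260 CP20M, those at R4 were 142, 486 and 152, and those at R8 were 85, 303 and 44. It was below vehicle in 5 of 6 lines at R4, M3 being the exception, and in 6 of 6 lines at R8, and the groups overlapped. The R4 value of M41 comes from the smallest library, where a single read was worth 39.0 CP20M, more than its gap to vehicle. Over both genotypes Fgfr4 fell 2.42-fold (log2 fold change -1.28, SE 0.40, limma adjusted p = 0.0284). In single genotypes the log2 fold change was -1.09 (SE 0.57, adjusted p = 0.208) in colonoids and -1.46 (SE 0.57, adjusted p = 0.139) in tumoroids, and with line as a block the tumoroid value was at the threshold (adjusted p = 0.05). Without M40, F11 or M14 the adjusted p for both genotypes together was 0.132, 0.174 and 0.0611.

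Fgfrl1, the receptor without a kinase, rose. In colonoids its vehicle values were 298 (M41), 291 (M40) and 301 (M1) CP20M, with 781, 500 and 899 at R4 and 1072, 678 and 838 at R8. In tumoroids vehicle values were 614 (F11), 638 (M3) and 656 (M14) CP20M, with 800, 1095 and 1282 at R4 and 994, 2133 and 1618 at R8. Within each genotype every regorafenib library lay above every vehicle library. The rise was 2.21-fold (log2 fold change 1.14, SE 0.17, limma adjusted p = 2e-04), 2.51-fold in colonoids (SE 0.24 on the log2 scale, adjusted p = 0.00188) and 1.94-fold in tumoroids (SE 0.24 on the log2 scale, adjusted p = 0.0229). Without M3 or M14 the Fgfrl1 value in tumoroids had an adjusted p of 0.181 and 0.217.

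Fgf2, a heparin-binding ligand that lacks a classical signal peptide, showed the largest change of the members tested in organoids. In M41, M40 and M1 it went from 177, 311 and 141 CP20M in vehicle to 937, 3631 and 3478 at R4 and 393, 2369 and 2384 at R8. In F11, M3 and M14 it went from 140, 138 and 388 CP20M in vehicle to 521, 2326 and 5137 at R4 and 340, 1686 and 3102 at R8. All 6 lines were higher at both doses, by 3.72 to 24.7 times at R4, and the R8 value lay below the R4 value in each line. The groups did not overlap in colonoids, whereas in tumoroids vehicle M14 at 388 CP20M lay above F11 at R8. The rise of Fgf2 over both genotypes was 7.49-fold (log2 fold change 2.90, SE 0.56, limma adjusted p = 0.00158). It was 8.00-fold in colonoids (SE 0.79 on the log2 scale, adjusted p = 0.0196) and 7.00-fold in tumoroids (SE 0.79 on the log2 scale, adjusted p = 0.0426). In colonoids the adjusted p of Fgf2 was 0.105 without M40 and 0.156 without M1. In tumoroids it was 0.0701, 0.0708, 0.31 and 0.196 without M40, M1, M3 or M14. With line as a block and all lines kept, the limma adjusted p of Fgf2 was 0.000938 in colonoids and 0.00245 in tumoroids (SE 0.44 on the log2 scale in each).

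Nudt6 is transcribed from the opposite strand and overlaps the 3′ end of Fgf2, and whether reads were counted by strand is not given in the sources used here, so reads of the overlap cannot be assigned. Nudt6 held 131, 140 and 106 CP20M in vehicle colonoids against 391, 781 and 771 at R4, and 166, 141 and 201 CP20M in vehicle tumoroids against 181, 581 and 1049 at R4. It rose as well (log2 fold change 1.45, SE 0.36, limma adjusted p = 0.00805), and its R4 value in line F11 was close to vehicle where Fgf2 was 3.72 times vehicle. Another gene, Gm43439, overlaps much of the span of Fgf2 on the same strand. Its highest value was 390 CP20M in organoids and 634 CP20M in fibroblasts, and reads shared with it were not separated here.

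Fgf13 had the smallest change of the called members. Its values in M41, M40 and M1 were 328, 209 and 345 CP20M in vehicle, 79, 237 and 223 at R4 and 227, 226 and 193 at R8. In F11, M3 and M14 they were 205, 422 and 341 CP20M in vehicle, 149, 258 and 184 at R4 and 157, 175 and 173 at R8. M40 did not fall at either dose, the other 5 lines were lower at both, and the M41 value at R4 rests on 2 reads. The fall of Fgf13 was 1.56-fold (log2 fold change -0.64, SE 0.22, limma adjusted p = 0.0376). It lay close to the thresholds: the adjusted p was 0.0536, 0.0979, 0.122 and 0.155 without M41, M1, M3 or M14, and without the shallow library alone the fall was 0.53 on the log2 scale, under 1.5-fold. In single genotypes the log2 fold change of Fgf13 was -0.57 (adjusted p = 0.223) in colonoids and -0.72 (adjusted p = 0.17) in tumoroids. Without the shallow library, or without all of M41, the Fgf13 value in tumoroids was called (adjusted p = 0.0322 and 0.0463).

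**Figure D2:**
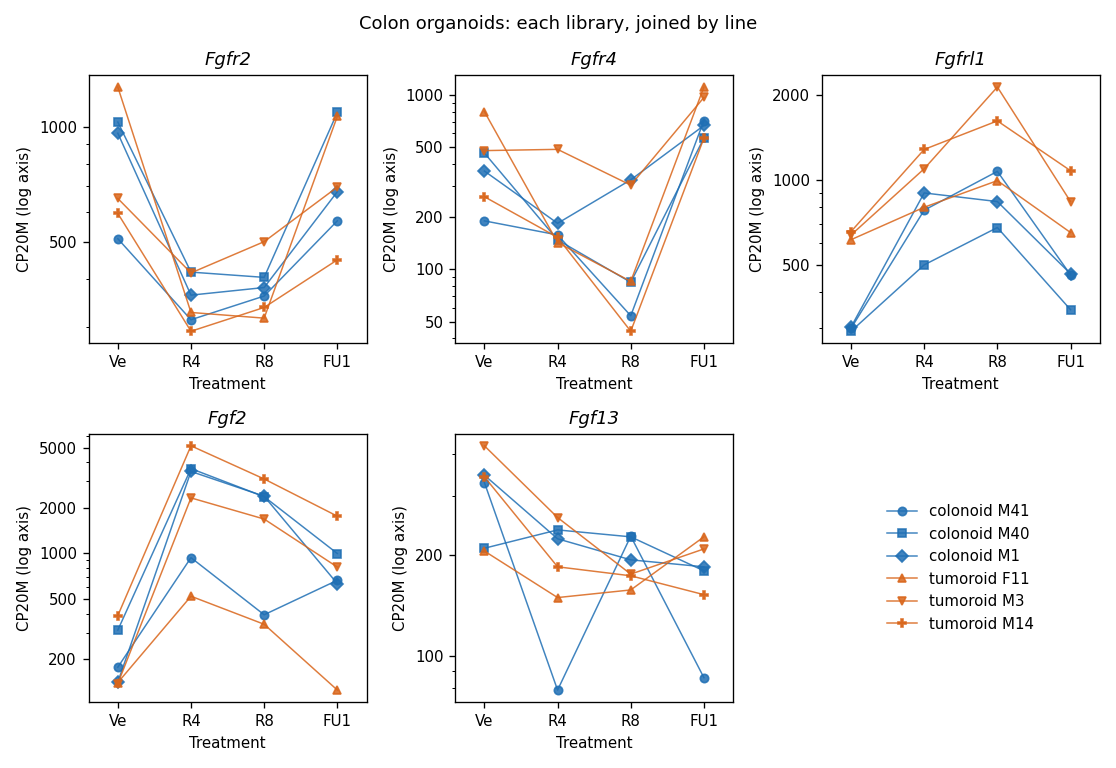
CP20M (y axes, log scale) of the 5 tested members in each organoid library against treatment (x axes: Ve, R4, R8, FU1), with colonoid lines in blue and tumoroid lines in orange and the libraries of a line joined. Fgf2 and Fgfrl1 lie higher at R4 and R8 than in vehicle in all 6 lines and Fgfr2 lower, and Fgfr4 at FU1 lies above vehicle in all 6 lines.

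Within single genotypes, 3 of 5 tested members were called in colonoids (Fgfr2, Fgfrl1 and Fgf2), where 13.25% of all tested genes were called, and the same 3 in tumoroids, where 6.78% were called. The test of the difference between the genotypes' responses called 0 of 5 members and 0.00883% of all genes, with 0 members at an unadjusted p under 0.05 and 0 by edgeR. For Fgf2 the difference, tumoroids minus colonoids, was -0.19 on the log2 scale (SE 1.12). It was -0.03 for Fgfr2 (95% interval -0.81 to 0.74) and -0.37 for Fgfrl1 (95% interval -1.08 to 0.34), so sizeable differences in either direction would not have been detected.

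Between the doses, R8 against R4, limma called 0 of 5 members and 0.451% of all genes, with 0 members at an unadjusted p under 0.05 and 0 by edgeR. The log2 difference, R8 minus R4, was -0.69 for Fgf2 (SE 0.65, adjusted p = 0.612), -0.65 for Fgfr4 (SE 0.46, adjusted p = 0.503) and 0.39 for Fgfrl1 (SE 0.19, adjusted p = 0.346). With line as a block these differences had smaller SEs and were still not called. The SE was 0.36 for Fgf2 (limma adjusted p = 0.312) and 0.35 for Fgfr4 (adjusted p = 0.339). For Fgfrl1 the 95% interval with the block was 0.06 to 0.73 (adjusted p = 0.201). In vehicle, tumoroids against colonoids, limma called 0 of 5 members and 1.39% of all genes, with 1 member at an unadjusted p under 0.05 and 0 called by edgeR. That member was Fgfrl1, at 614 to 656 CP20M in tumoroids and 291 to 301 CP20M in colonoids. The groups lay far apart relative to their spread (log2 difference 1.05, SE 0.27, limma adjusted p = 0.0722), and without the shallow library, which enters the estimate of the variance, the adjusted p of Fgfrl1 was 0.0303.

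5-fluorouracil, an antimetabolite that is no kinase inhibitor, was the comparator drug. Against vehicle, limma called 0 of 5 tested members, where 2.35% of all 11562 tested genes were called, with 4 members at an unadjusted p under 0.05 and 1, Fgf13, called by edgeR. Fgf2 at FU1 was 664, 998 and 631 CP20M in M41, M40 and M1 and 125, 812 and 1761 CP20M in F11, M3 and M14. It lay above vehicle in 5 of 6 lines and below it in F11 (log2 fold change 1.64, SE 0.67, adjusted p = 0.224). With line as a block Fgf2 was called (adjusted p = 0.00937). Fgf13 was lower in 5 of 6 lines (log2 fold change -0.78, SE 0.25, adjusted p = 0.1), and was called with line as a block (adjusted p = 0.0462) and without the shallow library (adjusted p = 0.0202).

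Fgfr4 at FU1 was 711, 564 and 666 CP20M in M41, M40 and M1 and 1107, 965 and 564 CP20M in F11, M3 and M14. These values were above vehicle in 6 of 6 lines, by 1.22 to 3.76 times, but the difference did not pass the threshold (log2 fold change 0.90, SE 0.42, limma adjusted p = 0.302, and 0.113 with line as a block). Fgfrl1 was also above vehicle in 6 of 6 lines (log2 fold change 0.43, SE 0.19, adjusted p = 0.255). Fgfr2 was higher in 3 lines and lower in 3 (log2 fold change -0.13, adjusted p = 0.88). The 5-fluorouracil and regorafenib comparisons share their vehicle libraries.

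In the fibroblasts 7 members were tested, Fgfr3 (10 to 135 CP20M) and Fgfr4 (0 to 7 CP20M) being too low. At R4 limma called 1 of 7 members, Fgf13, where 1.02% of all 11032 tested genes were called, and at R10 it called 2 of 7, Fgf13 and Fgfr1, where 7.33% were called. Both counts include Fgf13, which was eligible for the test only through libraries that received regorafenib, so they are no support for a response of the members as a set. The median log2 fold change over all genes was -0.00225 at R4 and -0.04 at R10.

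Fgfr1, the main kinase receptor of these cells, was lower in every treated line. Vehicle libraries of M3, M3(2), M1(2) and M11 held 6013, 6467, 8039 and 5861 CP20M, R4 libraries 4991, 4291, 5060 and 4487 CP20M, and R10 libraries of the first 3 lines 3896, 3654 and 4177 CP20M. The vehicle, R4 and R10 groups did not overlap. At R4 the log2 fold change was -0.48 (SE 0.10, limma adjusted p = 0.0266), a 1.39-fold difference that is under the 1.5-fold asked of a call. At R10 Fgfr1 fell 1.67-fold (log2 fold change -0.74, SE 0.11, adjusted p = 0.000498). Fgfr2 ranged from 214 to 927 CP20M and Fgfrl1 from 670 to 1088 CP20M over the 19 libraries, and neither was called at R4 (log2 fold change 0.03 and -0.08) or R10 (0.31 and 0.07). With line as a block the log2 fold change of Fgfr2 at R10 was -0.02 (SE 0.12).

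Fgf7, the keratinocyte growth factor that stromal cells supply to epithelium, had the lowest fold change of the members in fibroblasts. In M3, M3(2), M1(2) and M11 it held 981, 476, 824 and 433 CP20M in vehicle and 311, 138, 251 and 136 CP20M at R4, and 318, 238 and 229 CP20M at R10 in the first 3 lines. All R4 and R10 libraries lay below all vehicle libraries, and the ratio of R4 to vehicle was 0.290 to 0.317 in the 4 lines. The lines differed in their vehicle level, and without the block the log2 fold change of -1.61 at R4 (SE 0.42, limma adjusted p = 0.0634) and of -1.24 at R10 (SE 0.45, adjusted p = 0.0774) missed the threshold. With line as a block Fgf7 was called at R4 (adjusted p = 8.21e-06) and at R10 (log2 fold change -1.48, adjusted p = 1.69e-05). Without M11 it was called at both doses with no block (adjusted p = 0.0268 at R4 and 0.0155 at R10).

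Fgf10, the other mesenchymal ligand of epithelial Fgfr2, did not follow Fgf7. It held 2107, 2737, 3178 and 720 CP20M in vehicle and 3266, 3585, 2932 and 658 CP20M at R4 in M3, M3(2), M1(2) and M11, higher in 2 lines and lower in 2. At R10 it held 4063, 6389 and 3715 CP20M in M3, M3(2) and M1(2), above vehicle in 3 of 3 lines by 1.17 to 2.33 times. The R10 group lacks M11, the line with the lowest Fgf10, and the log2 fold change of 1.25 without the block (SE 0.67, limma adjusted p = 0.239) includes that gap. With line as a block it was 0.76 (adjusted p = 0.000525), which is a call, and without M11 it was 0.79 (adjusted p = 0.00917). An antisense gene, Gm16263, lies within Fgf10 and reached 702 CP20M in fibroblasts.

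Fgf13 rose from a low level. In M3, M3(2), M1(2) and M11 vehicle values were 72, 80, 76 and 47 CP20M and R4 values 301, 279, 201 and 273 CP20M, and at R10 the first 3 lines held 389, 387 and 338 CP20M. The groups did not overlap, in either treated group against vehicle or between R4 and R10. The rise was 3.20-fold at R4 (log2 fold change 1.68, SE 0.17, limma adjusted p = 0.000124) and 4.45-fold at R10 (log2 fold change 2.15, SE 0.18, adjusted p = 2.56e-06). Fgf13 reached 200 CP20M only in libraries that received regorafenib, so it entered the test through the groups in which it is high. Fgf2, the highest ligand, ranged from 3321 to 8003 CP20M over all fibroblast libraries. Its log2 fold change was 0.01 at R4 (SE 0.28, limma adjusted p = 0.993) and 0.03 at R10 (SE 0.30, adjusted p = 0.965). The R10 group lacks M11, the line with the lowest Fgf2 in vehicle. In the lines with an R10 library Fgf2 lay below vehicle in 3 of 3, at 0.823 to 0.933 of it. With line as a block its log2 fold change at R10 was -0.17 (SE 0.08, adjusted p = 0.1), which is not a call.

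Between R10 and R4, limma called 0 of 7 members and 0.145% of all genes, with 2 members, Fgfr1 and Fgf13, at an unadjusted p under 0.05 and 0 called by edgeR. With line as a block, the log2 difference, R10 minus R4, was 0.57 for Fgf10 (SE 0.15, limma adjusted p = 0.0137). It was -0.30 for Fgfr1 (SE 0.08, adjusted p = 0.0152) and 0.42 for Fgf13 (SE 0.15, adjusted p = 0.061). All of these were under the 1.5-fold asked of a call. Fgf10 and Fgf13 lay higher and Fgfr1 lower at R10 in 3 of 3 lines. Other cell types' markers moved in the same cultures. The summed smooth muscle markers (Myh11, Des, Cnn1) were at 2438 to 7355 CP20M in vehicle, 7181 to 16835 at R4, 11012 to 14961 at R10, 1621 to 5819 at A1 and 4408 to 10724 at R4A1, with 2 of the 3 genes at a median of 200 CP20M or more in each group and Des at 167 CP20M at most. The summed endothelial markers (Pecam1, Cdh5, Kdr, Emcn) were at 1104 to 9358 CP20M in vehicle, 1806 to 25153 at R4, 1487 to 6145 at R10, 868 to 6424 at A1 and 1933 to 16198 at R4A1, with 3 or 4 of the 4 genes reaching that median in each group. The summed macrophage markers (Ptprc, Csf1r, Adgre1, Cd68, C1qa) were at 375 to 1341 CP20M in vehicle, 295 to 617 at R4, 342 to 371 at R10, 371 to 732 at A1 and 260 to 413 at R4A1. Only 1 of these 5 genes reached a median of 200 CP20M in each group. The summed enteric glia markers were at 581 to 11069 CP20M in vehicle, 810 to 11369 at R4, 850 to 4328 at R10, 574 to 12641 at A1 and 568 to 11250 at R4A1. The R10 group lacks M11, the line with the highest sum in vehicle. In M3, M3(2) and M1(2) the enteric glia sum went from 911, 581 and 3926 CP20M in vehicle to 1425, 850 and 4328 CP20M at R10. The part of these other cell types in the FGF results was not tested.

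**Figure D3:**
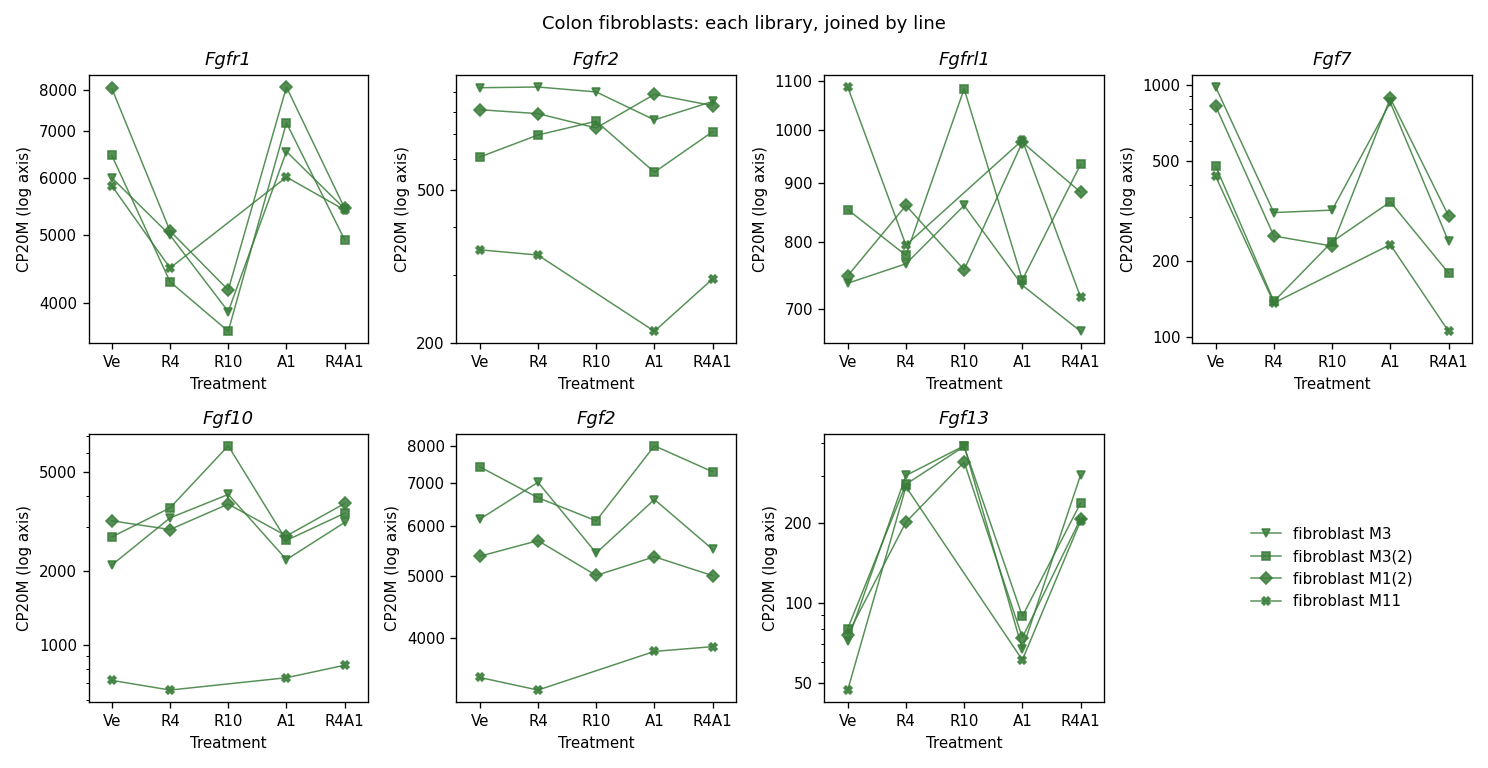
CP20M (y axes, log scale) of the 7 tested members in each fibroblast library against treatment (x axes: Ve, R4, R10, A1, R4A1), with the libraries of a line joined and no R10 library for M11. Fgfr1 and Fgf7 lie lower and Fgf13 higher than vehicle in every line at R4, R10 and R4A1, while Fgf10, Fgf2 and Fgfr2 are ordered mainly by line, M11 being lowest in each.

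No gene was called with autogramin-2 alone. Against vehicle, limma called 0 of 7 members and 0% of all genes, with 0 members and 120 genes at an unadjusted p under 0.05 and 0 genes by edgeR. Fgfr1 at A1 held 6549, 7188, 8075 and 6028 CP20M and Fgf7 852, 343, 885 and 232 CP20M in M3, M3(2), M1(2) and M11. Fgf7 was thus below vehicle in 3 of 4 lines (log2 fold change -0.35, SE 0.42, adjusted p = 1). Fgf13 at A1 stayed between 61 and 89 CP20M.

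Added to regorafenib, R4A1 against R4, limma called 0 of 7 members and 0.00906% of all genes, with 0 members at an unadjusted p under 0.05 and 0 by edgeR. Fgfr1 at R4A1 held 5437, 4917, 5447 and 5416 CP20M in M3, M3(2), M1(2) and M11, above R4 in 4 of 4 lines by 1.08 to 1.21 times and below vehicle in 4 of 4 (log2 difference from R4 0.17, SE 0.10, adjusted p = 0.904, and 0.163 with line as a block). Fgf7 at R4A1 held 239, 179, 302 and 105 CP20M, higher than R4 in 2 lines and lower in 2 (log2 difference -0.02, 95% interval -0.90 to 0.86). Fgf13 at R4A1 held 302, 237, 207 and 203 CP20M (log2 difference -0.14, 95% interval -0.50 to 0.21).

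**Figure D4:**
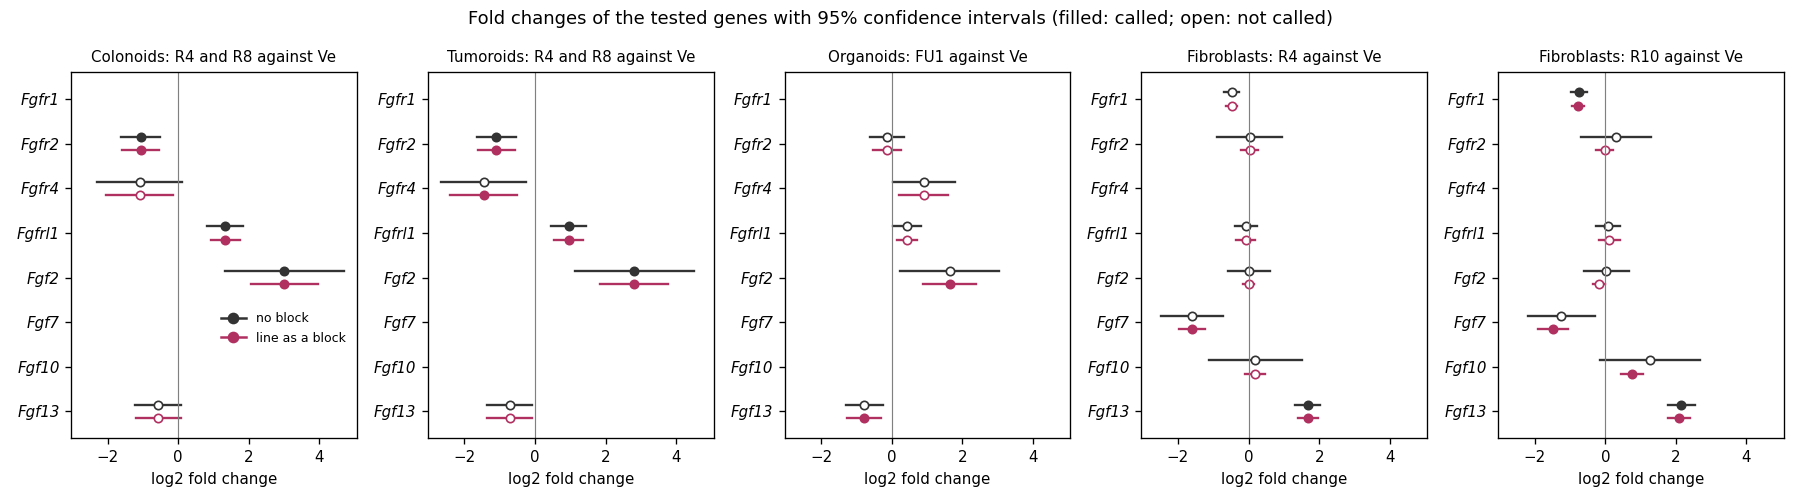
Log2 fold changes on the log2(CP20M + 20) scale (x axes) with 95% confidence intervals of the members (y axes) in 5 comparisons, without the block (black) and with line as a block (red), filled where called. Fgf2 has the largest value in both kinds of organoid, 3.00 and 2.81. Its fibroblast values without the block are 0.01 at R4 and 0.03 at R10, and with the block the R10 value is -0.17. The fibroblast values of Fgf7, -1.61 and -1.24 without the block, are filled only with the block.

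The rest of the pathway was taken from lists of ligands, co-receptors, heparan sulfate enzymes, adaptors, feedback inhibitors, ERK-linked targets and exon-choice regulators. The co-receptors and carriers are mostly heparan sulfate proteoglycans, which present FGF to its receptor. Of 16 such genes 10 were tested in organoids under regorafenib, 5 rose, 0 fell and 5 did not pass, where 7.58% of all tested genes rose and 8.63% fell, with a median log2 fold change of 0.83 against -0.10 over all genes. The syndecan Sdc3 rose by 2.77 on the log2 scale (SE 0.21), the glypican Gpc1 by 1.65 (SE 0.16), and Sdc2 and Gpc4 by 0.96 and 0.94 (SE 0.18 each). Sdc3 averaged 27.8 CP20M in vehicle and 307 CP20M under regorafenib, so it was eligible for the test only through treated libraries. The organoid counts under treatment that include Sdc3 are therefore no support for a response of the list as a set. In tumoroids 3 of 10 were called, where 6.78% of all genes were, and at FU1 Sdc3 (1.28) and Gpc1 (0.81) rose, 2 of 10 where 2.35% were called. In vehicle the perlecan gene Hspg2 (3.54, SE 0.68) and Sdc2 (1.36, SE 0.30) were higher in tumoroids than in colonoids, 2 of 10 where 1.39% of all genes were called. In fibroblasts 0 of 10 were called at R4, where 1.02% of all genes were called. At R10 Gpc4 (0.72) and Sdc1 (0.68) rose and Sdc4 (-0.69) fell, where 7.33% of all genes were called.

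The other signalling lists were small, and their counts are to be read against the 16.21% of all genes called under regorafenib in organoids, 2.35% at FU1, and 1.02% and 7.33% at R4 and R10 in fibroblasts. In organoids 2 of 10 heparan sulfate enzymes, 1 of 11 adaptors and 2 of 10 feedback inhibitors were called under regorafenib, shares near that of all genes. Among 10 tested heparan sulfate enzymes, the chain polymerase Ext1 rose (0.99, SE 0.19) and the heparanase Hpse fell (-1.27, SE 0.29) in organoids, and in fibroblasts at R10 the sulfotransferase Hs6st2 rose (1.48, SE 0.42). Of 11 tested adaptors and signal transducers, the phospholipase Plcg1 rose under regorafenib (1.13, SE 0.13) and at FU1 (0.83, SE 0.15), and Shc1 fell in colonoids (-0.71, SE 0.20). Of 10 tested feedback inhibitors, Spred3 (1.44, SE 0.20) and the ERK phosphatase Dusp4 (0.71, SE 0.23) rose in organoids and Spred3 rose at FU1 (1.01), whereas in fibroblasts Spred1 fell at R4 (-0.64, SE 0.13) and R10 (-0.89, SE 0.14). Among the other FGF ligands, 0 of 18 reached the level for testing in the regorafenib or fibroblast comparisons, and 1 was tested and not called at FU1.

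The ERK-linked targets are transcripts that ERK signalling is known to induce. Of 7 tested in organoids, Egr1 (-3.03, SE 0.36), Fos (-1.88, SE 0.21), Myc (-0.89, SE 0.18) and Fosl1 (-0.80, SE 0.21) fell and the ETS factor Etv4 (0.66, SE 0.21) rose, where 8.63% of all tested genes fell and 7.58% rose, with a list median of -0.80 against -0.10 over all genes. By genotype, Egr1, Fos and Myc were called lower in colonoids, where 13.25% of all genes were called. In tumoroids Egr1 and Fos were called lower and Etv4 higher, where 6.78% of all genes were called. The test of the genotype difference called 0 of these 7. In fibroblasts 0 of 8 were called at R4, where 1.02% of all genes were called. At R10 Etv1 (-1.32, SE 0.33), Fosl1 (-0.83, SE 0.26) and Myc (-0.83, SE 0.15) fell, where 7.33% of all genes were called. Of 4 regulators of Fgfr2 exon choice, Esrp2 (-0.68, SE 0.10) and Ptbp1 (-0.63, SE 0.12) fell in organoids, 2 of 4 where 16.21% were called. In single genotypes both were called in colonoids, where 13.25% of all genes were, and 0 of 4 in tumoroids, where 6.78% were. The test of the genotype difference called 0 of these 4. Gene-level values do not separate the splice forms of Fgfr2. The summed epithelial markers of colonoids were lower at R8 (96576 to 118998 CP20M) than in vehicle (126359 to 154754 CP20M), and so were those of tumoroids (59549 to 80580 against 81468 to 87066 CP20M). The summed macrophage markers (Ptprc, Csf1r, Adgre1, Cd68, C1qa) were higher at R8 than in vehicle in 6 of 6 lines, at 596 to 3247 against 419 to 513 CP20M in colonoids and 854 to 1736 against 507 to 573 CP20M in tumoroids. Over all 24 organoid libraries Ptprc was at 7 CP20M at most, C1qa at 2 and Adgre1 at 40. Csf1r was at 352 to 625 CP20M and Cd68 at 32 to 2659 CP20M, so of these 5 genes only Cd68 went above 625 CP20M. The summed endothelial, smooth muscle and enteric glia markers reached 79, 80 and 36 CP20M at most. The part of these markers in the organoid results was not tested.

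Some genes had patterns close to those of single members, by Pearson's r of log2(CP20M + 20). Over the 24 organoid libraries the genes most like Fgfr2 were 1700003D09Rik (0.903), Atp1b1 (0.903) and Ppp1r1b (0.897). Over the 19 fibroblast libraries those most like Fgfr1 were Srxn1 (0.935), Pcdh19 (0.933) and Dnajc10 (0.929), and those most like Fgf7 were Zwint (0.946), Golm1 (0.925) and Nfkbiz (0.925). The libraries share lines, so they are not independent points, and the values are descriptions without a test.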

How the data were processed

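Bulk RNA sequencing was analysed in 24 organoid and 19 fibroblast libraries. The authors trimmed reads with Trimmomatic 0.36, aligned them to GRCm38 with STAR 2.5.3a and counted genes with HTSeq 0.9.1. The sources name 2 different library kits, and the use of strand in counting is not given in the sources used here. The deposited signal values are CP20M, counts scaled to 20000000 per library and rounded up, which can only raise a value, by less than 1 CP20M. Dividing by the value of 1 read gave whole reads for at least 99.79% of organoid and 99.61% of fibroblast values. Groups followed the labels. For 3 tumoroid 5-fluorouracil libraries the title reads colonoid, and the genotype label decided the group. Columns with no sample numbered 0.

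The main test was limma 3.58.1 (R 4.3.3) on log2(CP20M + 20), with 1 coefficient per group and a mean-variance trend. It covered genes at 200 CP20M or more in at least 2 libraries of the fit, Benjamini-Hochberg adjusted over all of them. The fits held the 18 vehicle and regorafenib organoid libraries, all 24 organoid libraries for 5-fluorouracil, or all 19 fibroblast libraries. The scripts were tested on simulated data. Alternatives were line as a block, edgeR 4.0.16 on recovered reads, other pseudocounts, filters, TMM scaling and thresholds, and leaving out each line or the shallow library.

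Libraries of a line came from the same mouse, so the line pairs them. Deviations from the group means correlated at a mean of 0.429 (18 libraries), 0.503 (24) and 0.719 (19) within lines, and at -0.213, -0.249 and -0.229 between lines. Taking deviations from group means makes the between-line values negative when the within-line values are positive, so they are no separate evidence of pairing. Single within-line correlations ranged from 0.00865 to 0.887 (18 libraries), 0.0121 to 0.885 (24) and 0.339 to 0.946 (19). No replicates were near copies of each other.

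The members, gene lists, marker lists and motifs were chosen with earlier results of these data known. All 9 members are described, with the genes called in each pathway list (at most the 4 largest changes), Nudt6, and the 3 genes most like Fgfr2, Fgfr1 and Fgf7. Exon lengths, gene spans and overlaps come from a GRCm38 annotation that is not the release the authors used, and 8 of 9 members matched a RefSeq promoter.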

Additional observations from a re-analysis of the deposited data

Results flagged for a closer look

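Fgfr1 in fibroblasts at R4A1 was at 4917 CP20M in line M3(2), and the gap to the nearest of the other 3 lines was 0.942 of the range of the group. This was the only such value in 28 groups of 4 libraries, and chance gives about 1 in 20.

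Fgf13 moved in opposite directions at R4 in tumoroids and fibroblasts. All 3 tumoroid lines lay below vehicle, the highest ratio being 0.727, and all 4 fibroblast lines lay above it, the highest ratio being 5.81. The difference between the 2 kinds of culture was not tested, and this was 1 of 23 pairs compared.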

How the results depend on the processing

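None of the 14 called results of single members changed direction under any alternative tried, whereas 21 of the 56 results that were not called changed sign under at least 1 alternative. Over the other settings tried, 885 results of single members kept their side of the threshold, 37 lost a call and 17 gained one. Of the 5 members called in organoids under regorafenib, 3 were called with no filter on low values, 2 at an adjusted p under 0.001, and 3 to 4 when a line was left out. In colonoids, where 3 were called, 0 passed at an adjusted p under 0.001, and 1 to 3 with a line left out, Fgfrl1 alone without M40 or M1. In tumoroids, where 3 were called, 0 passed with no filter and 0 at an adjusted p under 0.001, 5 with line as a block and the shallow library left out (an alternative chosen after seeing the data), and 0 to 4 with a line left out, 0 without M3 or M14. In vehicle, tumoroids against colonoids, 1 member in place of 0, Fgfrl1, was called with all 24 libraries in the fit and 1 without the shallow library, and 0 with a line left out.

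At FU1, in place of 0 members, 2 were called with line as a block, 1 by edgeR, 1 without the shallow library, 2 with the block and without that library, and 0 with a line left out. In fibroblasts at R4, in place of 1, 2 were called with line as a block and 1 to 2 with a line left out. At R10, in place of 2, 4 were called with line as a block, 1 at an adjusted p under 0.01 and 2-fold, and 2 to 4 with a line left out. The replicate block thus added Fgf2 and Fgf13 at FU1, Fgf7 at R4, and Fgf7 and Fgf10 at R10, and also Fgfr4 in tumoroids at the threshold (adjusted p = 0.05). Beyond these 6 it changed no call of a member. The member counts under the alternatives are given without the share of all genes called at the same setting. A gain or loss of calls is therefore not read as particular to the members. No paired analysis was possible for the comparison of genotypes in vehicle because no line has both genotypes.

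Counts over all genes moved more. For regorafenib they ranged over the settings from 563 to 2405 in organoids (1835 in the report's test), and from 1303 to 1798 with a line left out. The ranges were 165 to 2431 in colonoids (1500), 732 to 1331 with a line left out, and 23 to 1779 in tumoroids (768), 157 to 1394 with a line left out. For R8 against R4 they were 0 to 295 (51) and 0 to 35, for the genotypes in vehicle 16 to 727 (157) and 7 to 244, and at FU1 44 to 810 (272) and 26 to 255, the second range being with a line left out. In fibroblasts they were 42 to 797 (113) and 28 to 317 at R4, 288 to 1519 (809) and 358 to 1118 at R10, 6 to 664 (16) and 0 to 45 for R10 against R4, and 0 to 158 (1) and 0 for R4A1 against R4. Under TMM scaling the colonoid median of all genes was -0.04 in place of -0.14, with 895 genes higher and 755 lower in place of 612 and 888. The cause of these shifts was not tested. Depth limits the R4 value of colonoid line M41, where Fgfr4 rests on 4 reads and Fgf13 on 2.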
